A study of Rattus norvegicus with 4 samples.

Results

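Zinc finger transcription factor genes were hosts of 74 of the 4942 circular RNAs (circRNAs) listed in rat sciatic nerve, and these came from 40 of 2327 host genes. A circRNA forms when the end of an exon is spliced back to the start of the same or an earlier exon, and reads across this back-splice junction count it. The hosts were those whose symbol starts with Zfp, Znf, Zbtb, Zeb, Zfhx, Zkscan, Zscan, Zmym, Zmiz, Ikzf, Klf or Prdm, or with Gli and a digit, less 1 gene that the rule leaves out, and only circRNAs with 1 host gene were taken. No listed host starts with Znf, Zkscan, Zmiz or, among those taken, Gli. The samples were total RNA of sciatic nerve from Sprague-Dawley rats at postnatal week 6. The crush covered 3 mm of nerve and was applied 2 times, 15 s each and 3 s apart. Sham rats had the nerve exposed only. Nerve with 1 mm at both ends of the crush was taken 24 h after surgery, and each group had 2 libraries. Whether separate animals or pools gave the libraries is not in the labels, and the p-values therefore reflect the variation among these 4 samples alone, possibly technical.

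Most of these genes encode proteins with C2H2 zinc fingers, short folds held by a zinc ion that read bases in the DNA groove. The Zbtb proteins add a BTB domain that pairs proteins and recruits corepressors, the Prdm proteins add a domain related to those of histone methyltransferases, and the Kruppel-like (Klf), Zeb and Ikaros (Ikzf) families act in differentiation, in epithelial to mesenchymal change and in blood cell development. The Zmym proteins carry MYM-type fingers, which bind proteins, and some genes named Zfp, such as Zfp106 and Zfp638, encode proteins known for binding RNA or nucleic acid in general. In peripheral nerve, Zeb2 is known from mouse Schwann cells, where it is needed for myelination and repair, and Klf7 from mouse sensory neurons, where it promotes axon growth. The values below are levels of circRNAs, which need not follow the mRNA of the host, and no linear mRNA was analysed here.

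Junction reads totalled 8250 and 9027 for the crush libraries and 9018 and 8726 for the sham libraries, always given in the order of replicates 1 and 2. A count was either 0 or at least 2, so a listed 0 can hide reads. Levels are also given as SRPBM, the authors' junction reads scaled by 1 constant per library. Of 18 Schwann cell and myelin markers only Cdh19, Mbp and Pmp22 hosted a listed circRNA (2 and 0 reads in crush nerve, 3 and 9 in sham nerve), and Prx, Mag and Sox10 hosted none, so the circRNA tables carry little of the tissue's defining genes. Markers of perineurial and endoneurial cells (2 of 11 listed) had 0 and 7 reads in crush nerve against 3 and 3 in sham nerve, and those of endothelial cells and pericytes (5 of 11) 8 and 8 against 7 and 13. Hosts among 26 leukocyte markers had 82 and 63 reads in crush nerve against 0 and 2 in sham nerve, and hosts among 18 skeletal muscle markers had 76 and 84 reads in crush nerve against 207 and 235 in sham nerve, nearly all of them from Mlip. Fewer cells of a type and less RNA per cell cannot be told apart in these bulk samples.

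The summed circRNAs of the zinc finger hosts were slightly fewer in crush nerve than in sham nerve. With the reads of Zfp629 counted, the difference as a share of reads was within counting error. Their 74 circRNAs had 109 and 106 junction reads in crush nerve against 118 and 124 in sham nerve. That was 1.59% (95% exact Clopper-Pearson interval 1.31% to 1.92%) and 1.43% (1.17% to 1.73%) of the host-assigned reads of the crush libraries, against 1.59% (1.32% to 1.90%) and 1.75% (1.46% to 2.08%) in the sham libraries. The intervals cover counting error only, and all 4 overlap. In SRPBM the sums were 7.90 and 6.34 in crush nerve against 8.60 and 9.75 in sham nerve. Both crush libraries lay below both sham libraries in reads and in SRPBM, while replicate 1 of each group had nearly the same share of reads. Without Zfp629, whose host is in doubt as described below, the sums were 99 and 84 reads in crush nerve against 118 and 124 in sham nerve. The groups lay further apart in these sums. No intervals were computed for them, so the overlap above is stated only with the reads of Zfp629 counted. The lower crush sum rested on 1 host: with each of the 40 left out in turn, the read sums of the groups overlapped in 1 case.

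The reads were concentrated in a few genes. The 8 hosts with enough reads to be tested held 63.0% of the 457 reads of the set, and 20 hosts were listed in a single library with 64 reads between them, Zfhx4 and Zscan2 as the lone hosts of their families. The 24 Zfp hosts gave 40 circRNAs and 71 and 80 reads in crush nerve against 63 and 78 in sham nerve. The 3 Zmym hosts gave 10 circRNAs and 6 and 5 reads in crush nerve against 9 and 11 in sham nerve. The 4 Zbtb hosts had 4 and 0 reads in crush nerve against 10 and 5 in sham nerve, both Zeb hosts together 11 and 0 against 3 and 2, both Klf hosts 4 and 5 against 7 and 2, and Ikzf1 3 and 12 against 0 and 0. By sum, Zmym and Zbtb lay lower in both crush libraries than in both sham libraries, Ikzf lay higher, and Zfp, Zeb and Klf overlapped. The Zmym order rested on Zmym4, with 2 and 2 reads against 9 and 9, while Zmym2 and Zmym6 had more reads in crush nerve. The Zbtb order rested on Zbtb10, with 0 and 0 reads against 7 and 3, and the Ikzf family is Ikzf1 alone.

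**Figure D1:**
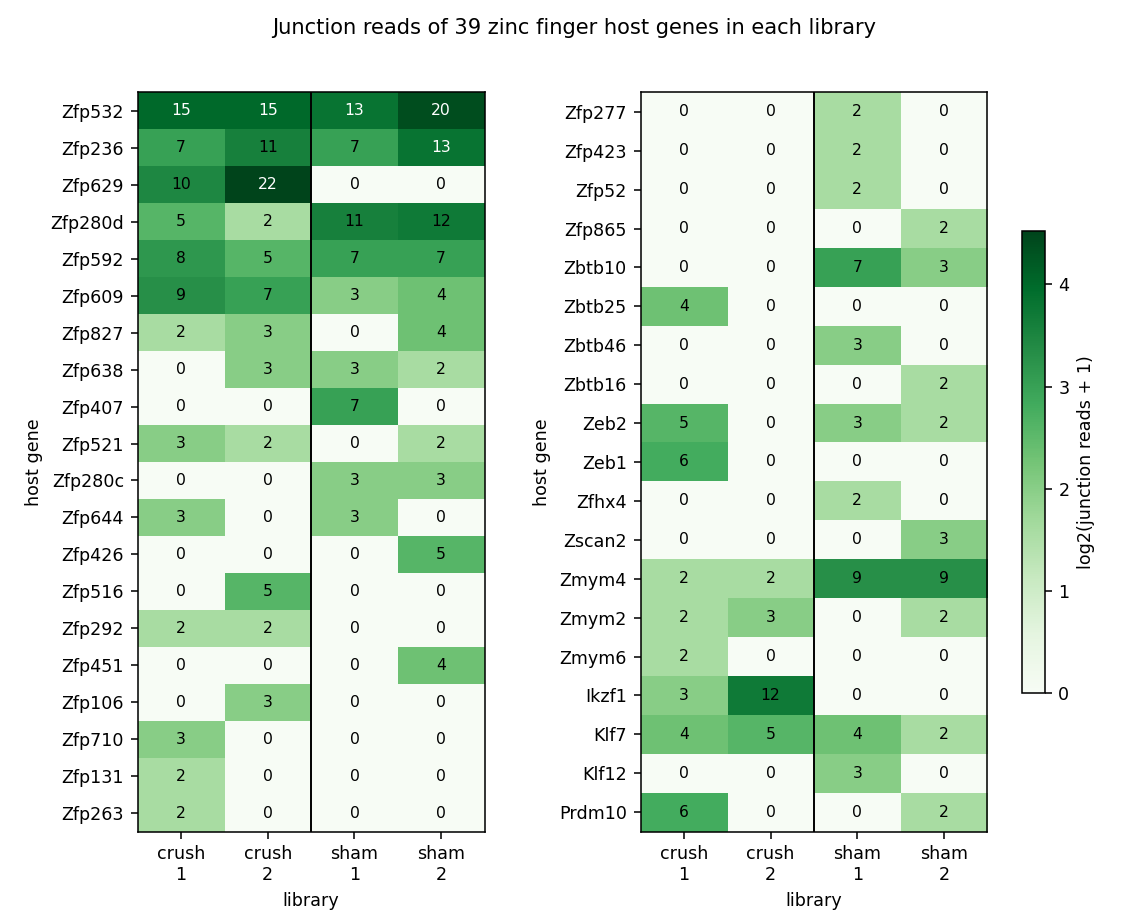
Junction reads of 39 host genes (rows, by family and then by total) in crush replicates 1 and 2 and sham replicates 1 and 2 (columns), with the count printed in each cell and shaded as log2(reads + 1). Zfp629 and Ikzf1 are filled only in the crush columns and Zbtb10 and Zfp280c only in the sham columns, and 20 rows hold a single filled cell.

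No zinc finger host passed the test of summed junction reads, and 1 zinc finger circRNA did. Of the 40 hosts, 8 had at least 5 reads in at least 2 libraries and were tested among 434 hosts (edgeR quasi-likelihood test with Benjamini-Hochberg adjustment over all 434, threshold 0.05). None of the 8 passed, beside 2.3% of all tested hosts. At an unadjusted p under 0.05 there were 2, Zfp629 among them, where 25.6% of all tested hosts had such a p. DESeq2 called 1 of the 8, Zfp629, beside 7.14% of all tested hosts. Of the 7 tested circRNAs, that of Zfp629 passed (adjusted p = 0.0485, edgeR), beside 11.9% of all 428 tested circRNAs. As circRNA and as host, Zfp629 met the filter through the crush libraries alone, so its calls are not independent of the filter. At an unadjusted p under 0.05 there was 1 of the 7, beside 27.8%, and DESeq2 called 1, beside 6.54%. The fitted change was above 0 in 3 of the 7 circRNAs and in 51.4% of all tested circRNAs. For hosts, it was above 0 in 5 of the 8 and in 53.5% of all tested hosts. The median log2 change was 0.05 for the 8 and 0.11 for all 434. With library totals from the SRPBM constants, which move the median of all hosts to -0.30, it was above 0 in 2 of the 8.

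Counted over all listed hosts in SRPBM, both crush libraries lay above both sham libraries in 4 of the 40 zinc finger hosts, beside 11.1% of all 2327 hosts. They lay below in 5 of the 40, beside 13.7% of all hosts. The 4 were Zfp629, Ikzf1, Zfp609 and Zfp292, and the 5 included Zmym4, Zfp280d, Zbtb10 and Zfp280c. As shares of 40 these counts are near those of all hosts. On the TMM scale of the test Klf7, Zfp521 and Zmym2 joined the first 4, which made 7 (beside 14.5% of all hosts), and the same 5 lay below (beside 10.6%).

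**Figure D2:**
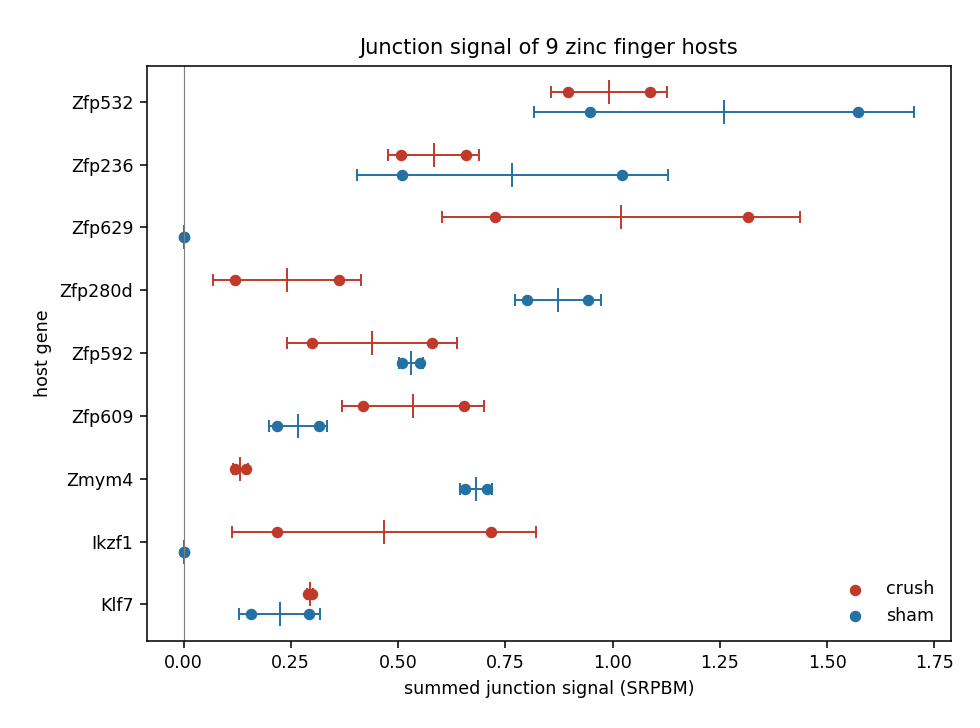
Summed junction signal in SRPBM (x axis) of 9 zinc finger hosts with many reads (y axis), with crush above sham for each host, a point per library and the mean with its SD (n = 2). Zfp280d and Zmym4 lie lower in both crush libraries, Zfp629, Zfp609 and Ikzf1 higher, and Zfp532, Zfp236, Zfp592 and Klf7 overlap.

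Among hosts lower after crush, Zmym4, a MYM-type zinc finger gene, had 2 and 2 reads in crush nerve against 9 and 9 in sham nerve. In SRPBM this was 0.132 ± 0.018 in crush nerve and 0.682 ± 0.037 in sham nerve (SD, n = 2 here and below). The groups did not overlap, and the log2 change was -1.90 ± 0.82 (SE here and below), with an adjusted p of 0.207 (edgeR). Of its 22 reads, 18.2% came from crush libraries (exact 95% interval 5.19% to 40.3%), where crush libraries held 49.3% of all junction reads. Such intervals, here and below, pool the libraries of a group. They cover counting error only, not the spread between libraries, and are no test of the groups. Zmym4 had 7 circRNAs, all on the minus strand of chromosome 5 between 144904225 and 144946805 (build Rnor_6.0, as for all circRNA positions here). They had 6 different starts and 6 different ends, and 6 of the 7 were listed in a single library. The exception, from 144916446 to 144918979, had 2 and 0 reads in crush nerve against 2 and 3 in sham nerve, so most of the sham reads came from circRNAs with 2 to 4 reads, each listed in 1 sham library.

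Zfp280d had 5 and 2 reads in crush nerve against 11 and 12 in sham nerve. Its SRPBM averaged 0.241 ± 0.172 in crush nerve and 0.873 ± 0.101 in sham nerve. The groups did not overlap, and the log2 change was -1.47 ± 0.76 (adjusted p = 0.272, edgeR). Crush libraries gave 23.3% of its 30 reads (exact 95% interval 9.93% to 42.3%). Its leading circRNA, exonic, on chromosome 8 from 78908446 to 78910847, had 5 and 0 reads against 11 and 7 (log2 change -1.57 ± 1.23, adjusted p = 0.497, edgeR). This rested on the crush libraries, with -6.11 without crush replicate 1, where crush was listed at 0, and -0.46 without crush replicate 2. The host's change was -2.19 and -0.74 in these settings. Zfp280c, a relative of Zfp280d on chromosome X, had 0 and 0 reads in crush nerve against 3 and 3 in sham nerve. No fold is given for it, since its sham reads equal the floor described below. An intergenic circRNA with the same start ran the other way, as given below. Zbtb10, whose product binds telomeric repeats in human cells, had 0 and 0 against 7 and 3, at least 1.88-fold lower. Such bounds set each listed 0 at a floor of 3 reads in that library, in SRPBM. The floor was assumed, and a bound holds only if a listed 0 hides no more reads than that. That of Zbtb10 was 1.19 without sham replicate 1, where its 3 sham reads equal the floor and only the library scaling is left. Both genes had too few reads to be tested, and the reads of Zbtb10 came from a different circRNA in each sham library, 94708675 to 94720889 and 94716330 to 94720889 on chromosome 2, which share an end.

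**Figure D3:**
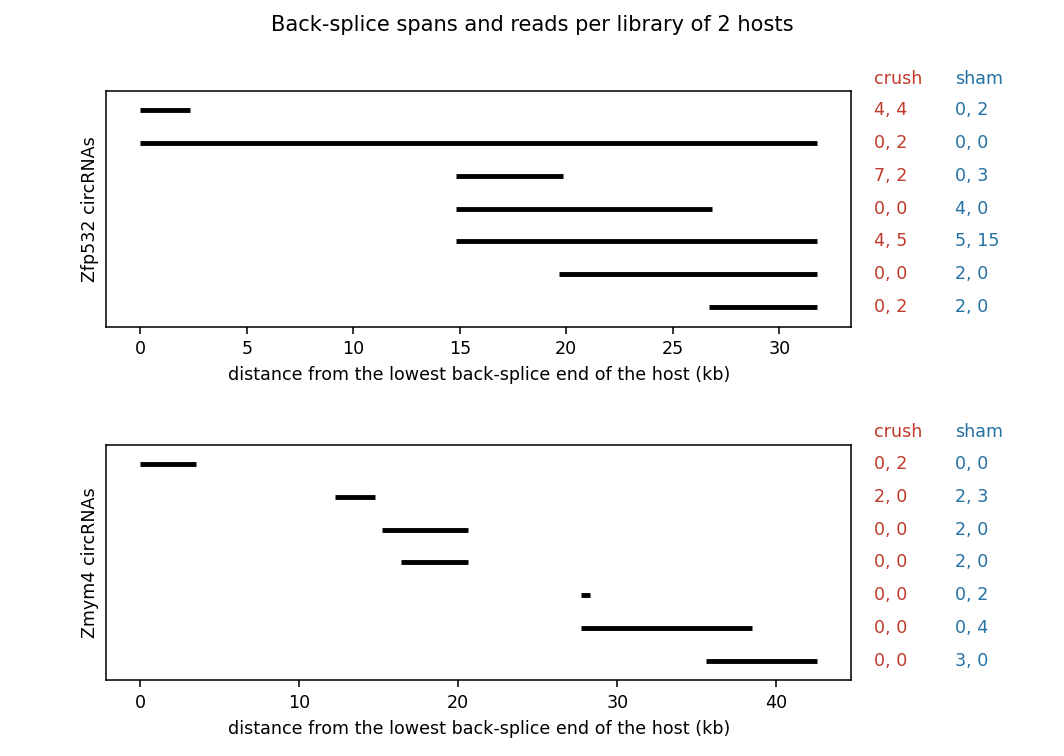
Genomic spans of the 7 circRNAs each of Zfp532 and Zmym4 as bars against the distance in kb from the lowest back-splice end of the host, with reads in crush replicates 1 and 2 (red) and sham replicates 1 and 2 (blue) at the right. The Zfp532 circRNAs start at 4 and end at 4 positions and 4 of them have reads in both groups, while those of Zmym4 start at 6 and end at 6 positions and have most reads in the sham column.

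Among hosts higher after crush, the circRNA listed under Zfp629 had the most reads and the least certain host. This intronic circRNA (chromosome 1, 198932174 to 198934500, plus strand) had 10 and 22 reads in crush nerve and 0 and 0 in sham nerve, or 1.02 ± 0.42 SRPBM in crush nerve. With the same assumed floor for a listed 0, it was at least 4.49-fold higher after crush. It had over 2 times as many reads in crush replicate 2 as in crush replicate 1. Its adjusted p was 0.0485 in the circRNA test and 0.0558 in the host test (edgeR). Only its crush reads brought it past the filter of the test, which favours a crush excess. Without either crush library it had too few reads to be tested, and with a filter of 2 reads in 2 libraries the circRNA call was lost (adjusted p = 0.135, edgeR). With replicate number as a block, though pairing is not shown, the circRNA call was also lost (adjusted p = 0.241, edgeR). The host passed in that setting (adjusted p = 0.0114, edgeR). RefSeq places Zfp629 on the minus strand of GRCr8, opposite to the circRNA. The 13 circRNAs of 9 other hosts within 3 Mb all lay on the RefSeq strand of their host, so the builds run the same way here, and the reads may not belong to Zfp629, a gene for a C2H2 zinc finger protein. Rnf40, a ubiquitin ligase gene, is its RefSeq neighbour on the plus strand.

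The strand could be compared for 41 of the 74 circRNAs, and 3 (7.32%) were opposite to the host, beside 6.13% of all circRNAs so compared. By type, 18.4% of all intronic and 4.55% of all exonic circRNAs so compared were opposite, and that of Zfp629 is intronic. The other two were an intronic circRNA of Zfp521 (chromosome 18, 5128722 to 5130982), where 10 of 10 neighbouring circRNAs kept the strand of their host, and the exonic circRNA of Zfp451, where 6 of 10 did. Zfp521 is the 1 host with circRNAs on both strands.

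Ikzf1 encodes Ikaros, a regulator of lymphocyte and other blood cell development. It had 3 and 12 reads in crush nerve and 0 and 0 in sham nerve, at least 2.06-fold higher with the same floor. The bound rested on crush replicate 2: it was 3.16 without crush replicate 1, and without crush replicate 2 no increase was bounded. Its 3 exonic circRNAs lay on chromosome 14 between 91797457 and 91858184. That from 91797457 to 91804795 was listed in both crush libraries, with 3 and 6 reads, and the other two only in crush replicate 2, with 2 and 4 reads. Ikzf1 missed the filter of the test by 1 library. Absence in sham nerve was shared with most leukocyte markers: 12 of 26 hosted circRNAs, and 11 of the 12 were listed only after crush. Of hosts outside the set, 6.25% were also listed in both crush libraries and no sham library. Between the crush libraries the markers had more reads in replicate 1 (82 and 63), Ikzf1 in replicate 2. The summed level of the markers was 3.77 to 5.95 SRPBM in crush nerve and 0 to 0.157 SRPBM in sham nerve. Among them Csf3r had 28 and 16 reads in crush nerve against 0 and 0 in sham nerve, Syk 13 and 12 against 0 and 0, and Dock8 8 and 12 against 0 and 0. Ptprc, the pan-leukocyte marker, had 2 and 0 reads in crush nerve and 0 and 0 in sham nerve. The part of leukocytes in the Ikzf1 reads was not tested.

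Zfp609, the gene of a widely studied circRNA in human and mouse muscle cells, had 1 exonic circRNA (chromosome 8, 71336875 to 71337745, minus strand). It had 9 and 7 reads in crush nerve against 3 and 4 in sham nerve. Mean SRPBM was 0.536 ± 0.165 in crush nerve and 0.267 ± 0.068 in sham nerve. The groups did not overlap, but the log2 change of 1.37 ± 0.77 had adjusted p = 0.312 (edgeR host test). Of 23 reads, 69.6% came from crush libraries (exact 95% interval 47.1% to 86.8%), an interval that holds the 49.3% of all junction reads. Zfp292, a large zinc finger gene, had 2 and 2 reads in crush nerve and 0 and 0 in sham nerve from 1 exonic circRNA of 649 bases of genome, too few for a fold.

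The promoter windows at the RefSeq start are shown for the 3 hosts higher after crush whose circRNAs lay on the gene's own strand. Whether a RefSeq start is the true start of the transcript was not tested. The Zfp609 window has letters like the end of an intron, tttttccag, at its RefSeq start. Its GC was 43.3%, against a median of 58.8% for member promoters, and it may not be a promoter. They run from 250 bases before to 50 after the RefSeq start in GRCr8, 5′ to 3′ on the gene's strand: Ikzf1 at chr14:90468446-90468745 (plus), Zfp609 at chr8:75213037-75213336 (minus) and Zfp292 at chr5:54264389-54264688 (minus). Capitals mark motifs of zinc finger families in the set, searched on both strands: CACCC for Kruppel-like factors, GGGAA for Ikaros and CAGGTG for Zeb.
Ikzf1: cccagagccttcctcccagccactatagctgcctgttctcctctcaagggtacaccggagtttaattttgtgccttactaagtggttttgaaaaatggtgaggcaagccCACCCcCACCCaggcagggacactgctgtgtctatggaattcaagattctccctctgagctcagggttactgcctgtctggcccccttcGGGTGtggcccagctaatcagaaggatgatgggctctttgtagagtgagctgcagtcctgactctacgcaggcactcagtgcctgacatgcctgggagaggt
Zfp609: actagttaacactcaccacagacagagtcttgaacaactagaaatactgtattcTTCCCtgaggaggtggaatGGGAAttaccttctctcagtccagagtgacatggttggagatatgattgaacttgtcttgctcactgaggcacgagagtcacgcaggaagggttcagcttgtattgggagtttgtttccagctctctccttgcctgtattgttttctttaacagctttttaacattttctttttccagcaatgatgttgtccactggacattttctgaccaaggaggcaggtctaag
Zfp292: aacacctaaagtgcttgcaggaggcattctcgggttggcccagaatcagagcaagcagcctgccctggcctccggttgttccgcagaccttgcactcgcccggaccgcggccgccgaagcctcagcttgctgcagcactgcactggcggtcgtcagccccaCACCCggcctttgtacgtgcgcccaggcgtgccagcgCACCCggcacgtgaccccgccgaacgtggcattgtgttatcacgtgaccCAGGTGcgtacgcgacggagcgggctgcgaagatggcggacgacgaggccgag
The Ikzf1 window held 3 CACCC matches and neither other motif, that of Zfp609 held 2 GGGAA matches alone, and that of Zfp292 held 2 CACCC matches and 1 CAGGTG. No motif occurred in all 3. Among the 28 member promoters with 1 RefSeq entry, CACCC was in 13, GGGAA in 18 and CAGGTG in 6, or 46.4%, 64.3% and 21.4%. Among all 33469 promoters of that length they were in 54.9%, 62.3% and 18.8%. A match is a description of these letters, not a binding site.

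Of the hosts with reads in all libraries, Zfp532, Zfp236, Zfp592 and Klf7 overlapped between the groups in SRPBM. Zfp532 and Zfp592, whose products join the same zinc finger and Zmynd8 chromatin complex in human cells, had 15 and 15 reads in crush nerve against 13 and 20 in sham nerve, and 8 and 5 against 7 and 7. Their log2 changes were 0.07 ± 0.51 and 0.11 ± 0.71. Zfp236 had 7 and 11 reads in crush nerve against 7 and 13 in sham nerve (0.04 ± 0.62). The adjusted p of the 3 lay from 0.953 to 0.973 (edgeR), and the sign of each turned with the scaling by SRPBM totals. Klf7, which promotes axon growth, had 4 and 5 reads against 4 and 2, from 1 exonic circRNA of 772 bases, and was not tested.

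**Figure D4:**
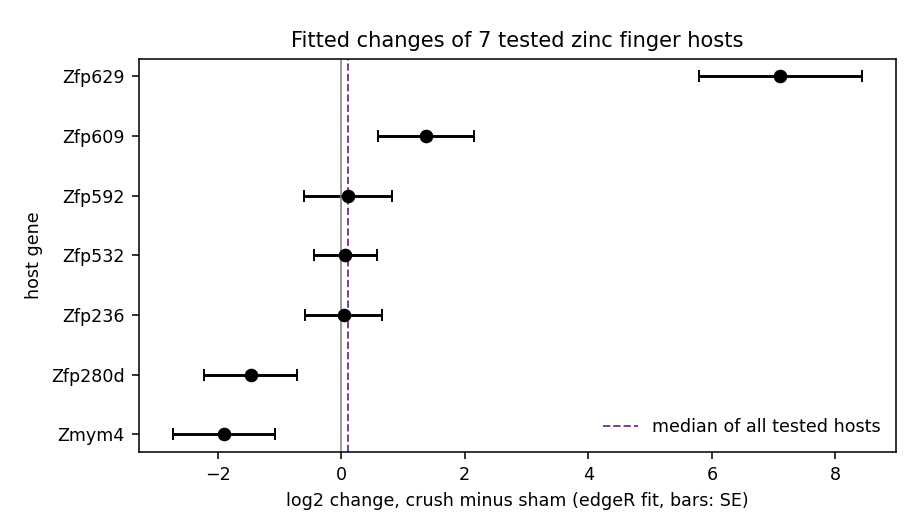
Log2 change, crush minus sham, of 7 tested zinc finger hosts with its SE (edgeR), beside 0 and the median of all 434 tested hosts (dashed). Zmym4 and Zfp280d lie below 0 and Zfp609 above by 1 SE or more, 3 hosts lie near 0, and the value of Zfp629 depends on the prior count since sham was listed at 0.

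Zfp532 had the most reads of the set, 63, spread over 7 circRNAs. All 7 were exonic, on the plus strand of chromosome 18 between 61308852 and 61340634. The most abundant, 61323689 to 61340634, had 4 and 5 reads in crush nerve against 5 and 15 in sham nerve (log2 change -0.94 ± 0.81, adjusted p = 0.554, edgeR). Those from 61308852 to 61311205 and from 61323689 to 61328704 had 4 and 4 against 0 and 2, and 7 and 2 against 0 and 3. Sham replicate 2 alone lay above the crush libraries in reads of the most abundant. The others named had more reads in crush nerve than in sham nerve in sum. In SRPBM the most abundant lay lower in crush nerve without overlap (0.290 and 0.299 against 0.364 and 1.18). That from 61308852 to 61311205 lay higher without overlap (0.290 and 0.239 against 0 and 0.157), on few reads and untested. That from 61323689 to 61328704 overlapped. Zfp236, by contrast, had 33 of its 38 reads in 1 circRNA, chromosome 18, 79530861 to 79532387, with 7 and 8 reads in crush nerve against 7 and 11 in sham nerve.

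Another 7 hosts were listed in 2 or 3 libraries with both groups among them. Zeb2 had 5 and 0 reads in crush nerve against 3 and 2 in sham nerve, Zfp827, known at telomeres with the NuRD complex in human cells, 2 and 3 against 0 and 4, and Zfp638, a silencer of retroviral DNA in human cells, 0 and 3 against 3 and 2. Zfp521, a progenitor cell regulator, had 3 and 2 against 0 and 2, Zmym2, a partner of histone deacetylase complexes, 2 and 3 against 0 and 2, Prdm10 6 and 0 against 0 and 2, and Zfp644, known with the G9a methyltransferase complex, 3 and 0 against 3 and 0. A listed 0 beside several reads was common: where 1 library listed 5 or more reads, the other library of the group was at 0 in 6 of 32 cases for zinc finger hosts (18.8%) and in 18.0% of cases for other hosts. Zeb2 after crush is 1 of the 6.

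The remaining 20 hosts were listed in 1 library. Of these, 8 were listed after crush: Zeb1, an inducer of mesenchymal state, with 6 reads, Zfp516, a brown fat regulator in mouse, with 5, Zbtb25 with 4, Zfp710 and the RNA-binding Zfp106 with 3 each, and Zfp131, Zfp263 and Zmym6 with 2 each. The 12 listed in sham nerve were Zfp407 with 7 reads over 3 circRNAs, Zfp426 with 5, the SUMO ligase gene Zfp451 with 4, Klf12, Zscan2 and the dendritic cell gene Zbtb46 with 3 each, and Zbtb16, Zfp423, Zfp277, Zfhx4, Zfp52 and Zfp865 with 2 each. Zbtb16 encodes PLZF and Zfp423 a regulator of fat and neural precursors. For other hosts, 27.8% were listed in 1 crush library only and 23.9% in 1 sham library only, beside the 8 and 12 of 40 here. These shares were not tested.

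The structure of the zinc finger circRNAs was set beside that of the other 4133 circRNAs with 1 host gene. Exonic circRNAs were 67 of 74 (90.5%, against 88.7% of the others), the median genomic span, introns included, was 6987 against 8573 bases, and 68.9% were listed in 1 library, against 72.5%. A back-splice end was shared with another circRNA of the strand in 47.3%, against 42.9%. Hosts gave 1.85 circRNAs each, against 1.81. Exonic circRNAs spanning 50 kb or more were 8 of 67 (11.9%, against 6.25%) and had 12 reads in crush nerve and 27 in sham nerve. Among them were 1 each from Ikzf1, Zeb1, Zfhx4, Zfp407, Zfp423 and Zfp521. Each of those named had 2 or 3 reads, listed in 1 library, so most of the sham reads came from the others. The 11 exonic ones under 2 kb, among them those of Zfp609, Zfp236, Klf7 and Zfp292, had 58 reads in crush nerve and 42 in sham nerve. The longest was of Zfp407, chromosome 18, 81170024 to 81289889, and the shortest of Zeb1, chromosome 17, 54714713 to 54714913. The 7 intronic circRNAs had 34 reads in crush nerve and 12 in sham nerve, 32 of the 34 under Zfp629.

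Some circRNAs classed as intergenic touched zinc finger hosts and stood outside the sums. That on chromosome 18, 81289815 to 81428974, minus strand, overlapped the longest Zfp407 circRNA by 74 bases and had 2 and 2 reads in crush nerve against 10 and 11 in sham nerve. That is 0.132 ± 0.018 SRPBM in crush nerve and 0.797 ± 0.097 SRPBM in sham nerve. Its log2 change was -2.12 ± 0.73 (adjusted p = 0.142, edgeR), and it was singled out after its values were seen. Zfp407 itself had 0 and 0 reads against 7 and 0. An intergenic circRNA that shares an end with both Zeb1 circRNAs (chromosome 17, 54658435 to 54714913) had 0 and 0 reads in crush nerve against 2 and 2 in sham nerve, where the Zeb1 circRNAs had 3 and 0 reads each after crush and none in sham nerve. Others were listed in crush nerve only. That with the same start as the Zfp280c circRNA (chromosome X, 135406401 to 135436054) had 0 and 3 reads, a second at Zfp407 (chromosome 18, 81289815 to 81429735) had 3 and 0, and a pair that overlaps a Zmym2 circRNA (chromosome 15, from 37171042 to 37192878 and to 37196123) had 0 and 3 and 0 and 2. That spanning the Zfp426 circRNA (chromosome 8, 21478006 to 21502165) had 0 and 2 reads in sham nerve and none in crush nerve. The 7 did not run one way, and the one at Zfp407 first named was the only one with enough reads to be tested.

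Genes that work with zinc finger factors were read from the same test. Of 63 cofactor genes (corepressors, histone deacetylases, SWI/SNF subunits and others), 26 hosted circRNAs and 11 were tested, with 9 higher and 2 lower after crush and none past the threshold (edgeR, 2 at an unadjusted p under 0.05). Of all 434 tested hosts, 53.5% were higher, 2.3% passed and 25.6% had such a p, so 2 of 11 is no more than that share. Their reads came to 178 and 200 in crush nerve against 73 and 106 in sham nerve. Of these, the SWI/SNF subunit gene Arid1a had 68 and 96 against 0 and 44, the histone-reading Morc3 14 and 15 against 12 and 12, and Mbd2, a methyl-CpG reader of the NuRD complex, 26 and 18 against 4 and 3 (adjusted p = 0.0558). The median log2 change of the 11 was 0.48, against 0.11 for all tested hosts.

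Of 74 other zinc finger factor genes, such as Sp, Egr, Tshz and GATA genes and nuclear receptors, 13 hosted circRNAs and 5 were tested, with 2 higher, 3 lower and none past the threshold (edgeR, 2 at an unadjusted p under 0.05), beside the same 53.5%, 2.3% and 25.6% of all tested hosts. Tshz2 had 5 and 9 reads in crush nerve against 36 and 29 in sham nerve (log2 change -1.99 ± 0.51, adjusted p = 0.0836), Rreb1 13 and 16 against 2 and 18, and Zfx 5 and 11 against 15 and 11. Of 68 factors of other classes, 35 hosted circRNAs and 9 were tested, with 5 higher and 4 lower. Nfix alone passed, with 67 and 106 reads against 265 and 348 (adjusted p = 0.0490), beside 2.3% of all tested hosts that passed and 53.5% that were higher. Smad4 had 37 and 52 against 19 and 23, and Crebrf 8 and 20 against 40 and 41. Tshz2 and Nfix each had more reads in both sham libraries than in either crush library.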

How the data were processed

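Total RNA was sequenced as paired-end libraries, per the labels' protocols, from 2 crush and 2 sham libraries. Each circRNA has a deposited junction read count and an SRPBM value, per the file headers. SRPBM is a signal that the authors deposited, and in every library it equals the count times 1 constant. CASAVA 1.8, BWA, edgeR and Rnor_6.0 are listed, without roles, in the submitters' processing notes. The circRNA caller and the base from which positions count are not given in the sources used. Position and genomic length are the authors' deposited values.

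Junction reads were summed per host gene over circRNAs with 1 host (3 with 2 hosts were left out). Hosts and circRNAs reaching 5 reads in at least 2 libraries entered edgeR 4.0.16 (glmQLFit, glmQLFTest, TMM, two-sided, Benjamini-Hochberg over all tested, threshold 0.05) in R 4.3.3, with DESeq2 1.42.0 as an alternative. SRPBM values are mean ± SD with n = 2, and are not on the TMM scale. The SE of an edgeR log2 change was derived as its size divided by the square root of the test's F statistic. Counts were also simulated with a dispersion of 0.1 and a log2 change of 3, up or down, in a large part of the features. The host test recovered 92.9% of changed hosts and the circRNA test 91.1% of changed circRNAs. The 10 simulations each had 414 to 449 tested hosts and 423 to 464 tested circRNAs. The dispersion was set and not estimated from these libraries, so these shares do not give the power of the tests on the real counts. All 40 symbols matched RefSeq's GRCr8 table, and 29 had a RefSeq promoter entry. Entries of Zfp521, with 2, were left out of motif counts. Among those not matched were Zbtb10, Zbtb16, Zfhx4, Zfp280c, Zfp280d, Zfp423, Zfp532, Zfp710, Zfp827 and Zmym4.

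The members, lists and tests were chosen with earlier results of these data known. Named genes are the tested members, untested members and circRNAs by reads, and the 3 list genes with most reads plus any past the threshold. Of the genes so chosen, 1 host and 1 marker are not reported here, and sums and counts include them. The counts of a replicate pair differed beyond sampling noise in both groups.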

Additional observations from a re-analysis of the deposited data

How the results depend on the processing

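Depth limits what these counts can show: 32 of the 40 zinc finger hosts had too few reads to be tested, and 2 libraries a group give little measure of spread. The call of zinc finger hosts, 0 of 8 in the edgeR test, was 1 under DESeq2, 1 with no filter, 1 with the replicate block and 2 with at least 10 reads in 2 libraries (Zfp629 among them, adjusted p = 0.0112). It was 0 to 1 with a library left out, the 1 being Zfp629 without sham replicate 2 (adjusted p = 0.00435). Over all hosts, 10 calls became 31 under DESeq2, 39 with no filter, 0 with at least 2 reads, 44 with at least 10, 24 with the replicate block, 20 for exonic circRNAs only, and 0 (without crush replicate 2) to 84 (without sham replicate 2) with a library left out. For circRNAs, the Zfp629 call became 0 with at least 2 reads and 0 with the replicate block (adjusted p = 0.241), and was 0 to 1 with a library left out, since it could not be tested without either crush library. All circRNA calls, 51, became 28 under DESeq2, 0 with at least 2 reads, 23 with at least 10, 0 with the replicate block, and 6 (without crush replicate 1 or 2) to 76 (without sham replicate 1). Same-numbered libraries were not shown to be paired: their deviations correlated at -0.055 over 434 hosts. Tested zinc finger hosts with a change above 0, 5 of 8, were 2 with SRPBM totals, 19 with no filter, 11 with at least 2 reads, 3 with at least 10, and 2 to 5 with a library left out. The number tested differs with each filter.

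The log2 ratio of the zinc finger share of reads, crush over sham, was -0.13, and became -0.37 in SRPBM, -0.30 for exonic circRNAs and 0.053 for circRNAs with at least 5 reads in 2 libraries. The difference of shares of host-assigned reads, -0.16 percentage points, became -0.31 and 0.017 in the last 2 settings. Hosts with crush above sham without overlap, 4 in SRPBM, were 7 on the TMM scale and 6 as shares of reads, scalings chosen after seeing the data, as were the settings that leave a library out of a fold bound or a host out of the sums. Uncalled changes near 0 turned sign. With SRPBM totals, no filter and at least 2 reads the log2 change was -0.34, -0.11 and -0.11 for Zfp532, -0.37, -0.13 and -0.12 for Zfp236, and -0.28, -0.0734 and -0.0727 for Zfp592. With a library left out these ran from -0.43 to 0.39, from -0.54 to 0.53 and from -0.21 to 0.63. The Zfp236 circRNA was at 0.061 with DESeq2's size factors, 0.059 under DESeq2 and -0.49 to 0.26 with a library left out. That of Zfp592 was at -0.28 with SRPBM totals and -0.23 to 0.56 with a library left out, and that of Zfp532 at -1.65 to 0.0074. That of Zfp280d ran from -6.11 to -0.46. The cause of these changes was not tested. Zmym4, Zfp280d, Zfp609 and Zfp629 kept their direction in every host alternative run. This is little evidence, since Zfp629 had no sham reads and the groups of the others did not overlap, so a turn was hardly possible. Zfp609 and Zfp629 could not be tested without either crush library, nor Zmym4 without either sham library. A setting restricted to hosts with a C2H2 protein motif was not run.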
